A study of Homo sapiens with 4 samples.

Results

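The genes described here encode methionine synthase, its helpers and the enzymes that make and recycle S-adenosylmethionine (SAM): MTRR, MTR, MMACHC, MAT2A, MAT2B, AHCY, AHCYL1 and MTAP. They were measured in BT474, a long-established line from a human breast tumour that carries extra copies of ERBB2, on Affymetrix U133 Plus 2.0 arrays. The members were all 20 probe sets whose platform annotation lists exactly 1 of these 8 symbols, among 54613 probe sets that are not controls; 0 of the 20 listed a further symbol. Cells received fresh medium with vehicle (2 arrays) or with 0.5 mM AICAR (2 arrays) for 24 h. AICAR is a nucleoside whose phosphorylated form in cells, ZMP, belongs to the purine pathway and can stand in for AMP to activate the kinase AMPK. The series title asks about PGC-1α, ERRα and one-carbon metabolism. The labels do not state whether replicates are separate cultures, and the p-values describe how these 4 arrays vary, and that spread could be purely technical.

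Methionine synthase joins the folate cycle to the methionine cycle: it moves a methyl group from 5-methyltetrahydrofolate to homocysteine through a cobalamin (vitamin B12) cofactor and releases methionine and free tetrahydrofolate. Methionine is then joined to ATP to give SAM, the methyl donor of DNA, RNA, histone and lipid methylation. Each transfer leaves S-adenosylhomocysteine, which is split back to homocysteine, and polyamine synthesis leaves methylthioadenosine, which is salvaged to methionine.

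Of 10 luminal breast markers, 9 had a tested probe set; TFAP2B, a luminal transcription factor, was below the filter on all of its probe sets (214451_at at 4.71 with vehicle and 4.59 with AICAR). The amplified gene ERBB2 (216836_s_at) read 13.30 and 13.32 (log2) with vehicle and 13.36 and 13.36 with AICAR. Its dimmer probe sets 234354_x_at and 210930_s_at differed by 0.47 and -0.08 (limma adjusted p = 0.0636 and 0.731). Of 26 tested probe sets of these 9 genes, 0 were called in limma (unadjusted p under 0.05 in 2 that were higher and 2 that were lower). With 1 probe set per gene, the estrogen receptor gene ESR1 (205225_at) was called lower (log2 difference -0.31, adjusted p = 0.0411); its part in the results was not tested. The 12 stromal, endothelial and blood markers had 21 tested probe sets, which cover 9 of these genes; 0 of the 21 were higher and 1 was lower in limma, that of the collagen gene COL1A1 (1556499_s_at, log2 difference -0.63; adjusted p = 0.0549 without the filter on dim probe sets). Unadjusted p-values under 0.05 were found in 0 higher and 2 lower ones. The summed linear level of these 12 genes was 1945 and 2001 with vehicle and 1565 and 1685 with AICAR. This sum mostly follows COL1A1, the brightest of them, at a mean of 10.02 (log2) with vehicle and 9.38 with AICAR. The other tested COL1A1 probe sets differed by -0.38 (202310_s_at), -0.09 (202312_s_at) and 0.13 (217430_x_at). The median difference of the 21 tested probe sets was 0.03, and 8 were negative. The part of this sum in the results was not tested. The medians of the 4 arrays lay between 6.37 and 6.40 (log2). Precision is limited by having 2 arrays per group.

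Values are log2 expression per probe set, a set of short probes against 1 stretch of a transcript; in a difference, AICAR minus vehicle, 1 unit is a doubling. A probe set was tested with limma if its mean over the 4 arrays was at least 5.21 (log2), the 30th percentile, and was called at an adjusted p under 0.05 over all 38229 tested. Of the members 18 passed this filter. Of the 18, 0 were higher and 2 were lower with AICAR, 1 of MTRR and 1 of MTR, beside 1.43% of all probe sets called higher, 2.42% called lower and 3.84% in either direction. At an unadjusted p under 0.05 the 18 counted 1 higher and 6 lower, beside 3225 higher and 4669 lower of all 38229 probe sets, 20.6% in either direction. Differences were negative for 14 of the 18 and for 49.0% of all probe sets, and the median was -0.15 for the members and 0.0037 for all. In 11 of the 18 both AICAR values lay below both vehicle values, which held for 27.0% of all, and in 2 both lay above, which held for 24.5%. The 18 come from 8 genes, with 5 from MTAP, and probe sets of 1 gene are not separate outcomes. The members were also chosen with earlier results of these data known, so these shares do not test the members as a group. In each fit without 1 of the 4 arrays, 0 of the 18 were called in limma, with 4 to 7 lower at an unadjusted p under 0.05; in those fits at most 1 of all 38229 probe sets was called.

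**Figure D1:**
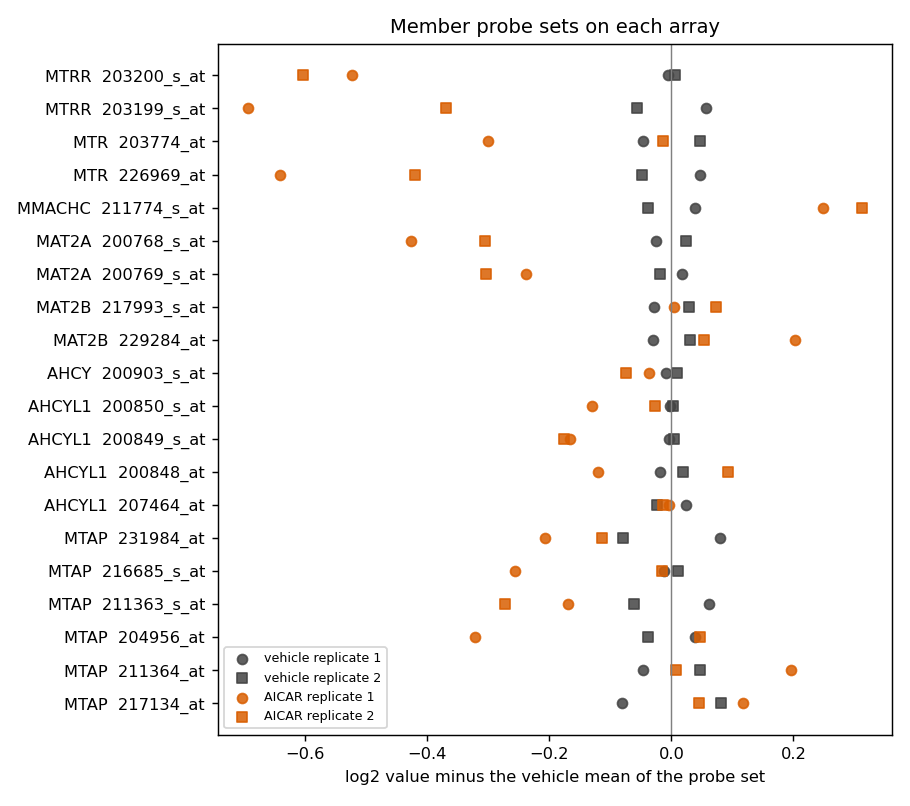
Log2 value on each array minus the vehicle mean of that probe set (x axis) for the 20 member probe sets (y axis); grey points are vehicle, orange points AICAR, circles replicate 1 and squares replicate 2. Both probe sets of MTRR and of MAT2A and 1 of MTR have their AICAR points to the left of their vehicle points, MMACHC has them to the right, and the remaining probe set of MTR (203774_at) overlaps.

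MTRR, methionine synthase reductase, restores the cobalamin of methionine synthase when it has been oxidised during turnover. Its probe set 203200_s_at read 10.43 and 10.44 (log2) with vehicle and 9.91 and 9.83 with AICAR. The gap between the groups was far wider than either pair. It fell 1.48-fold, a difference of -0.56 (log2, SE 0.0805, 95% confidence interval -0.76 to -0.37, limma adjusted p = 0.0275). The other probe set, 203199_s_at, read 7.90 and 7.79 with vehicle and 7.15 and 7.47 with AICAR, so its groups did not overlap either, although the AICAR pair was wider apart. Its difference was -0.53 (SE 0.123, -0.83 to -0.23, adjusted p = 0.0716) and did not pass. The responses of the probe sets differed from each other by 0.03 (log2, 95% confidence interval -0.32 to 0.38, adjusted p = 0.945). Without 1 array at a time the difference of 203200_s_at stayed between -0.60 and -0.52, with adjusted p from 0.0785 to 0.195.

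With 1 probe set per gene, that with the highest mean, 13842 genes were tested, of which 4.63% were called higher and 5.19% lower, 9.82% in all (limma). In this second fit 2 of the 8 genes fell, MTRR (difference -0.56, adjusted p = 0.0102) and MAT2A, and 0 rose. At an unadjusted p under 0.05 the counts were 2 lower and 1 higher. The share of all genes at that threshold was not counted, so these counts have no background beside them. The MTRR call in this fit ended without vehicle replicate 1 (adjusted p = 0.0730) and without vehicle replicate 2 (0.0747). The 5 genes with the most similar pattern to MTRR, by Euclidean distance of the 4 values after subtracting the vehicle mean, were MCM7, a subunit of the replicative helicase (distance 0.0119), FAM3B (0.0249), the carnitine acetyltransferase CRAT (0.0325), the splicing factor SF1 (0.0398) and ZFAND2A (0.0403). The distance is over 4 arrays and 13841 other genes, and with so few arrays it mostly ranks genes by the size of their difference. RefSeq lists FASTKD3, a mitochondrial RNA-binding protein gene, inside the span of MTRR. Its probe set 219200_at read 10.48 and 10.52 with vehicle and 10.11 and 10.34 with AICAR, without overlap. It differed by -0.27 (adjusted p = 0.200) and was not called.

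MTR is methionine synthase itself. Its probe set 226969_at read 8.65 and 8.55 (log2) with vehicle and 7.96 and 8.18 with AICAR, with no overlap. It fell 1.44-fold, a difference of -0.53 (SE 0.103, 95% confidence interval -0.78 to -0.28, adjusted p = 0.0482). The call ended without the filter on dim probe sets (0.0668) and without each single array, where the difference ranged from -0.64 to -0.42. The other probe set, 203774_at, read 9.87 and 9.96 with vehicle and 9.61 and 9.90 with AICAR. Only AICAR replicate 1 lay below the vehicle pair, and the groups overlapped. Its difference of -0.16 (SE 0.115, -0.43 to 0.12, adjusted p = 0.499) did not pass. Without AICAR replicate 1 it was -0.01, and without AICAR replicate 2 it was -0.30, with adjusted p = 0.966 and 0.217. The response of 226969_at lay 0.37 below that of 203774_at (log2, interval of 226969_at minus 203774_at -0.63 to -0.12), which did not pass after adjustment over 22499 such probe sets (adjusted p = 0.178; 0.364% of them called).

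MMACHC receives cobalamin in the cytosol and strips its upper ligand, so that it can be made into the cofactor of methionine synthase. Its only probe set, 211774_s_at, read 7.64 and 7.56 (log2) with vehicle and 7.85 and 7.91 with AICAR. Both AICAR values were the higher ones, opposite to MTRR and MTR. The difference was 0.28 (SE 0.0821, 95% confidence interval 0.08 to 0.48, adjusted p = 0.122) and did not pass. It did not pass with 1 probe set per gene either (adjusted p = 0.0597), but was called there after quantile normalization (0.0374) and with a filter at the 50th percentile (0.0292).

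The promoters of MTR and MMACHC are shown because MMACHC prepares cobalamin for the cofactor of MTR, and their promoters share a sequence element. Their differences had opposite signs, but MMACHC was not called, and of MTR only 226969_at was called. RefSeq promoter windows (GRCh38.p14, 250 bases before to 50 after a listed start) were given for 7 of the 8 genes, and MTRR had no entry. A pair of half-sites, ACTAC and TCCCA with 3 bases between, resembles part of the site bound by ZNF143 and THAP11, factors that work with HCFC1 and are known to control MMACHC. The pair was chosen after these promoters had been read, so its count among them tests nothing. On both strands it was found in 3 of the 7 genes (MTR, MMACHC and AHCY), beside 2.02% of 27305 genes with a window of this length and 1.67% of all 35116 windows. In AHCY only window 3 of those listed held it, and a gene with more windows has more chances of a match. The capitals mark the pair with the bases between and CCAAT, read as ATTGG on the other strand; the motifs do not overlap. CCAAT was found in 6 of the 7 genes and in 39.7% of all genes.
MTR promoter, chr1:236795031-236795330, + strand: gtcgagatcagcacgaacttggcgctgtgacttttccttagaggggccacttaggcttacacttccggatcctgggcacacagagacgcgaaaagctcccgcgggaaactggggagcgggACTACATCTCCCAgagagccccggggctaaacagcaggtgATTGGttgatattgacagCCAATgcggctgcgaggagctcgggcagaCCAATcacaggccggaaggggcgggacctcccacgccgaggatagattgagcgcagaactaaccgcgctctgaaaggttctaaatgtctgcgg
MMACHC promoter, chr1:45500050-45500349, + strand: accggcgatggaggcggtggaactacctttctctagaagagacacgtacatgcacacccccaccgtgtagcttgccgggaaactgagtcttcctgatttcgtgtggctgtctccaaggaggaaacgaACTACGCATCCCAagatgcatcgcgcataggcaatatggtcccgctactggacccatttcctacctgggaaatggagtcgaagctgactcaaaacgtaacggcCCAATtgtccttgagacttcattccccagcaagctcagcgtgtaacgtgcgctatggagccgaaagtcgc
The pair of half-sites began 130 bases before the start in MTR and 123 before it in MMACHC. The ERR element TNAAGGTCA, searched because the series title names ERRα, and the E-box CACGTG were found in 0 of the 7 genes, beside 1.17% and 8.77% of all genes. These are letter matches in the windows and describe no binding. The MMACHC window shares 274 bases with that of CCDC163, which is read from the opposite strand. The probe sets of CCDC163, 1559003_a_at and 236900_x_at, differed by -0.13 and -0.17 (log2, adjusted p = 0.455 and 0.297), opposite in sign to MMACHC. ZNF143 itself (221873_at) read 9.36 and 9.34 with vehicle and 9.02 and 9.02 with AICAR. It differed by -0.33 (adjusted p = 0.0740) and was called lower with 1 probe set per gene (adjusted p = 0.0313), while its other probe set, 206428_s_at, differed by 0.0037. THAP11 (212910_at) differed by -0.11 (limma adjusted p = 0.482). The probe sets of HCFC1 differed by -0.0030 (202474_s_at), 0.0028 (202473_x_at) and -0.10 (231177_at), without a call.

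MAT2A is the catalytic subunit of the SAM synthetase of most tissues outside the adult liver. Its probe set 200768_s_at read 11.00 and 11.05 (log2) with vehicle and 10.60 and 10.72 with AICAR. The other, 200769_s_at, read 9.48 and 9.44 with vehicle and 9.22 and 9.16 with AICAR. In both, the AICAR pair lay below the vehicle pair without overlap. The differences were -0.37 (SE 0.0855, 95% confidence interval -0.57 to -0.16, adjusted p = 0.0726) and -0.27 (SE 0.0800, -0.46 to -0.08, adjusted p = 0.124), and neither passed. With 1 probe set per gene MAT2A fell 1.29-fold (SE 0.0751, adjusted p = 0.0334). That call ended without the filter on dim genes (0.0670), without vehicle replicate 1 (0.151), without vehicle replicate 2 (0.172) and without AICAR replicate 1 (0.0848). With a trend and robust variances both probe sets passed (0.00394 and 0.0316).

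The promoter of MAT2A is shown because its window overlaps that of a neighbour whose difference had the same sign. Capitals mark the GC box GGGCGG, read as CCGCCC on the other strand, and the TATA box TATAAA. They do not overlap each other.
MAT2A promoter, chr2:85538918-85539217, + strand: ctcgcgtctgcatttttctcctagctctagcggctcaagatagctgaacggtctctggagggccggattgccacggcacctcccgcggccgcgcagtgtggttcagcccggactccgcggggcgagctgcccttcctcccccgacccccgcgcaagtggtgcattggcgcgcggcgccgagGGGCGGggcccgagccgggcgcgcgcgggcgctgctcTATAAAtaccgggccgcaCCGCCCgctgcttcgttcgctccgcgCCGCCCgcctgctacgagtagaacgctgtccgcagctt
The TATA box began 32 bases before the start; it was found in 3 of the 7 genes and 14.0% of all genes, and the GC box in 6 of the 7 and 48.3%. PARTICL, a long non-coding RNA read from the opposite strand, has a window that shares 219 bases with this one. Its probe set 238887_at read 6.63 and 6.48 (log2) with vehicle and 6.32 and 6.15 with AICAR. It differed by -0.32 (adjusted p = 0.139) and was not called. GGCX, the vitamin K-dependent carboxylase gene that overlaps the other end of MAT2A, had 5 probe sets, which differed by -0.18 to 0.20, with 0 called (limma) and 0 at an unadjusted p under 0.05. FASTKD3, CCDC163, PARTICL and GGCX were singled out after their values had been seen.

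MAT2B is the regulatory subunit that binds MAT2A. Its probe set 217993_s_at read 11.24 and 11.29 (log2) with vehicle and 11.27 and 11.34 with AICAR, with overlap. The difference was 0.04 (95% confidence interval -0.16 to 0.24, adjusted p = 0.829). The other probe set, 229284_at, read 5.53 and 5.59 with vehicle and 5.76 and 5.61 with AICAR, close to the filter, and differed by 0.13 (-0.09 to 0.34, adjusted p = 0.477).

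AHCY, the hydrolase that splits S-adenosylhomocysteine, read 10.05 and 10.07 (log2) with vehicle and 10.02 and 9.98 with AICAR on its probe set 200903_s_at. The AICAR values were both the lower ones by a small margin. The difference was -0.06 (95% confidence interval -0.24 to 0.13, adjusted p = 0.739), so a fall of more than 0.24 lay outside its interval. AHCYL1, a relative of AHCY that binds the inositol trisphosphate receptor rather than acting as a hydrolase, had 4 probe sets. The one with the narrowest pairs, 200849_s_at, read 10.05 and 10.06 with vehicle and 9.89 and 9.88 with AICAR. Its groups did not overlap, and its difference of -0.17 (-0.36 to 0.02, adjusted p = 0.282) did not pass. The probe set 200850_s_at differed by -0.08 (adjusted p = 0.646) and 200848_at by -0.01 (adjusted p = 0.956). The latter changed sign after quantile normalization (0.02), without vehicle replicate 2 (0.0046) and without AICAR replicate 1 (0.09). The dim 207464_at, at 4.11 to 4.15, was not tested and differed by -0.0091.

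MTAP cleaves the methylthioadenosine left by polyamine synthesis, the opening step of methionine salvage, and is often deleted in tumours together with its neighbour CDKN2A. In these cells 5 of its 6 probe sets passed the filter. The probe set 231984_at read 7.88 and 7.72 (log2) with vehicle and 7.60 and 7.69 with AICAR, and 211363_s_at read 7.22 and 7.10 with vehicle and 6.99 and 6.89 with AICAR. Neither pair of groups overlapped. They differed by -0.16 (95% confidence interval -0.39 to 0.06, adjusted p = 0.391) and -0.22 (-0.44 to -0.0050, adjusted p = 0.233). Of the rest, 216685_s_at differed by -0.14, 204956_at by -0.14 and 211364_at by 0.10 (adjusted p = 0.515, 0.609 and 0.610). In 204956_at only AICAR replicate 1 lay below the vehicle pair, at 6.76 against 7.13 for replicate 2, and without it the difference was 0.05 (log2). The dim 217134_at, which was not tested, differed by 0.08. CDKN2A (209644_x_at) differed by 0.10 (adjusted p = 0.598). Its other tested probe set, 207039_at, differed by 0.21 (limma adjusted p = 0.218), with both AICAR values above both vehicle values.

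**Figure D2:**
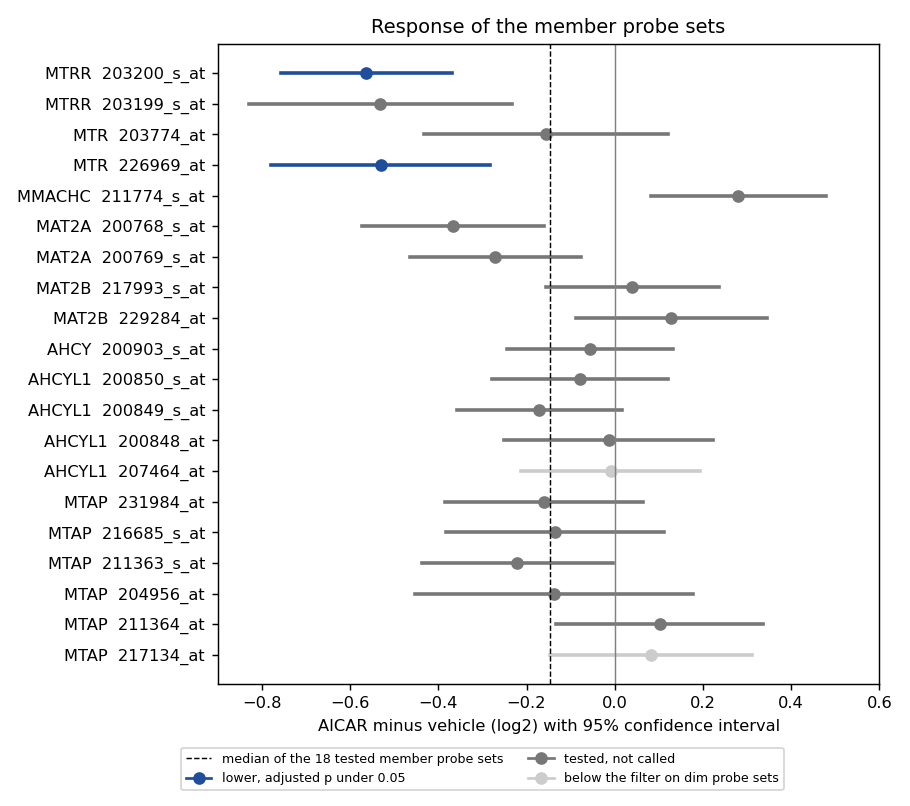
Difference AICAR minus vehicle (log2, x axis) with its 95% confidence interval for the 20 member probe sets (y axis); blue marks a call at an adjusted p under 0.05, dark grey a tested probe set without a call, light grey a probe set below the filter, and the dashed line the median of -0.15. The intervals of both MTRR, both MAT2A and 1 MTR probe set lie below 0, that of MMACHC lies above 0, and that of the MTAP probe set 211363_s_at ends at -0.0050.

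To compare the genes with MTRR, its value was subtracted from each gene on every array and the result fitted over 13841 genes, of which 95.2% differed from MTRR. Of the other 7 members, 6 differed from it. MTRR had the largest difference of the members in these same arrays, so nearly any gene would differ from it. The count therefore does not set the members apart from other genes. Each test below shows only how far that gene lay from MTRR. MTR, here its probe set 203774_at, whose groups overlapped, responded 0.41 higher (95% confidence interval 0.14 to 0.68, adjusted p = 0.00812) and MMACHC 0.84 higher (0.63 to 1.05, adjusted p = 7.6e-05). MAT2A responded 0.20 higher, with an interval of -0.02 to 0.42 that includes 0 (adjusted p = 0.0760), so MAT2A and MTRR were not told apart. The called MTR probe set 226969_at, at -0.53 close to the -0.56 of MTRR, was not part of this comparison, so the test of MTR against MTRR covers 1 of the 2 MTR probe sets.

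The other genes of the methionine cycle gave 13 tested probe sets, of which 0 were higher and 2 lower in limma, with a median of -0.10, and 3 higher and 3 lower ones had an unadjusted p under 0.05. CBS, which condenses homocysteine with serine, fell on 212816_s_at from 6.62 and 6.48 (log2) to 5.73 and 5.62, a difference of -0.88 (SE 0.0917, adjusted p = 0.0171). Its probe sets disagreed: 1553972_a_at differed by -0.31 (adjusted p = 0.0956) and 240517_at by 0.08 (0.747). CTH, which releases cysteine in the next step, fell on 217127_at from 6.62 and 6.57 to 6.19 and 6.03, a difference of -0.49 (SE 0.0898, adjusted p = 0.0446; 0.0632 without the filter on dim probe sets, which ends the call). The other CTH probe set, 206085_s_at, differed by -0.12 (adjusted p = 0.577). With 1 probe set per gene, SLC25A26 (225862_at), the carrier that brings SAM into mitochondria, was called higher (0.31, log2, limma adjusted p = 0.0466). CBS, there represented by 1553972_a_at, and CTH were called lower (0.0444 and 0.0198). In the limma fit of all probe sets, 225862_at was not called (adjusted p = 0.0996), and neither was 1553972_a_at.

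Of the genes for cobalamin transport and handling, 0 of 22 tested probe sets were called (limma), with an unadjusted p under 0.05 in 4 higher and 1 lower ones, and the median was -0.0001. The largest differences were those of ZNF143 and of MMAB, which makes the adenosylcobalamin of the mitochondrial mutase rather than the cofactor of methionine synthase. The 3 MMAB probe sets differed by 0.28 (225826_at, adjusted p = 0.179), 0.38 (238975_at, 0.135) and 0.33 (242082_at, 0.0757). On each of them both AICAR values lay above both vehicle values.

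In methionine salvage and the polyamine steps that feed MTAP, 0 of 13 tested probe sets were higher and 1 was lower, with a median of -0.03, beside an unadjusted p under 0.05 in 1 higher and 3 lower ones. It was that of ODC1, ornithine decarboxylase, which opens polyamine synthesis; 200790_at read 11.06 and 11.04 (log2) with vehicle and 10.59 and 10.58 with AICAR. The difference was -0.46 (SE 0.0775, adjusted p = 0.0376), and the call ended without the filter on dim probe sets (0.0546). Of 8 tested probe sets of genes near MTAP, 0 were called (limma), with an unadjusted p under 0.05 in 1 higher and 1 lower one. ELAVL2 (228260_at), a neuronal RNA-binding protein gene, differed by -0.69 (SE 0.137, adjusted p = 0.0505) and KLHL9 (213233_s_at) by -0.15 (adjusted p = 0.383). With 1 probe set per gene ELAVL2 was called lower (adjusted p = 0.0271).

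Among the methyltransferases that use SAM, 67 probe sets of 29 genes were tested; 0 were higher and 2 lower (limma), with an unadjusted p under 0.05 in 3 higher and 16 lower ones, and the median was -0.10. EZH2, the histone H3 lysine methyltransferase of Polycomb complexes, fell on 203358_s_at from 10.37 and 10.46 (log2) to 9.74 and 9.82, a difference of -0.63 (SE 0.0844, adjusted p = 0.0238). METTL3, the catalytic subunit for N6-methyladenosine in mRNA, fell on 242111_at by 0.56 (SE 0.109, adjusted p = 0.0496; 0.0673 without the filter, which ends the call). Of its other probe sets, 213653_at differed by -0.24 (adjusted p = 0.304) and 209265_s_at by 0.13 (adjusted p = 0.396), so 2 of the 3 METTL3 probe sets were negative. The positive one, 209265_s_at, was the brightest, and both of its AICAR values lay above both vehicle values. It represented METTL3 in the limma fit of 1 probe set per gene and was not called there (adjusted p = 0.263). With 1 probe set per gene 0 of 28 genes rose and 4 fell: EZH2 (adjusted p = 0.00903), the arginine methyltransferases PRMT1 (-0.44, adjusted p = 0.0447) and PRMT5 (-0.42, adjusted p = 0.0232), and ICMT (-0.29, adjusted p = 0.0478). In the limma fit of all probe sets, those of PRMT1, PRMT5 and ICMT were not called (adjusted p = 0.0833, 0.0518 and 0.105). The other PRMT1 probe set, 1565016_at, differed by -0.01, and those of ICMT by -0.16 (201610_at) and -0.06 (201611_s_at). PRMT5, the enzyme that methylthioadenosine inhibits in cells without MTAP, was negative on all 3 probe sets, at -0.42 (217786_at), -0.39 (1564520_s_at) and -0.28 (1564521_x_at).

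**Figure D3:**
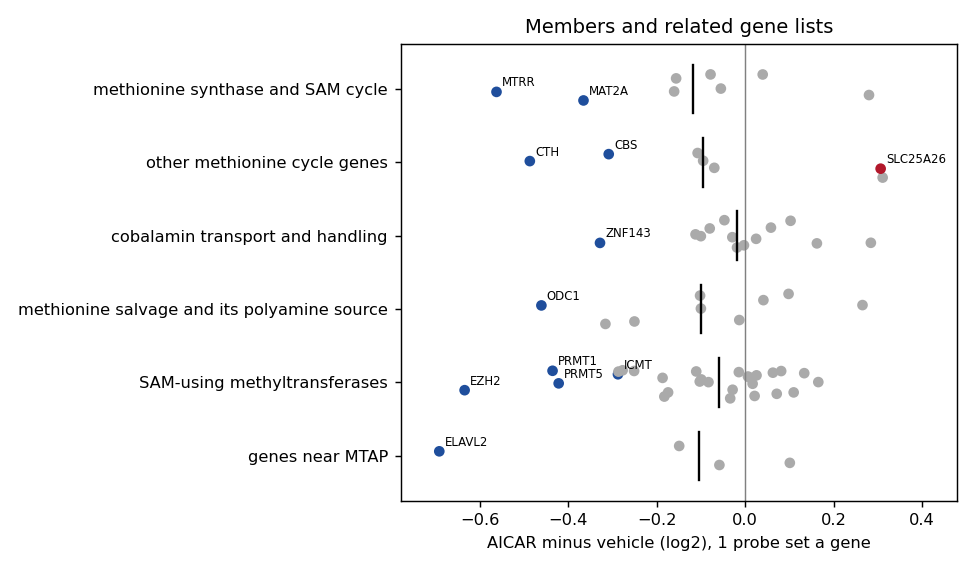
Difference AICAR minus vehicle (log2, x axis) with 1 probe set per gene, for the methionine synthase and SAM cycle genes and 5 related gene lists (y axis); blue marks genes called lower, red a gene called higher, grey genes not called, vertical bars the median of each list, and the vertical spread within a list is only for legibility. MTRR at -0.56 and MAT2A at -0.37 are the called members; SLC25A26 at 0.31 is the only called gene on the positive side in these lists.

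**Figure D4:**
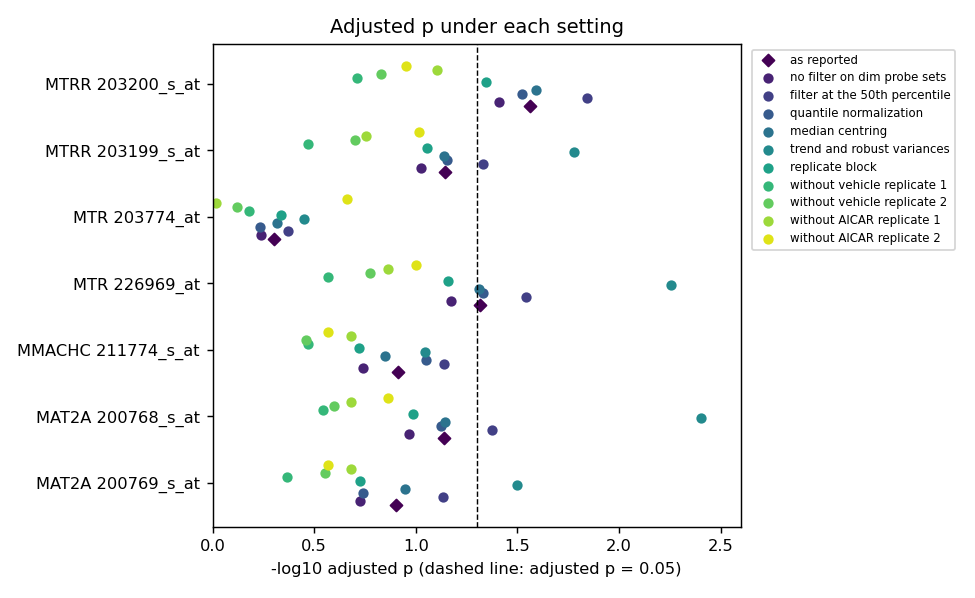
Adjusted p on a -log10 scale (x axis) for 7 probe sets of MTRR, MTR, MAT2A and MMACHC (y axis); the diamond is the fit as reported, circles are other settings and fits without 1 array, and the dashed line is an adjusted p of 0.05. The point of MTRR 203200_s_at with a trend and robust variances (limma adjusted p = 0.000395) lies beyond the right end of the axis and is not drawn. MTRR 203200_s_at lies past the line in every fit of all 4 arrays, and in the fits without 1 array 0 of the 7 probe sets reach it.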

How the data were processed

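RNA of 4 BT474 samples was profiled on Affymetrix U133 Plus 2.0 arrays. The authors deposited log2 expression values per probe set, made with Affymetrix Expression Console per the submitters' processing notes; how it summarized probes and corrected background is not given in the sources used here. Values, 2.95 to 15.34, were used as deposited; dim probe sets may show too small a change. Symbols came from the platform annotation, updated through Entrez IDs with RefSeq (GRCh38.p14, for names and neighbours): 41091 probe sets had 1 symbol, 1801 several and 11721 none listed.

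The package limma 3.58.1 (lmFit, then eBayes; R 4.3.3) gave each difference and its two-sided test, with Benjamini-Hochberg adjustment over 38229 probe sets, and again over 13842 genes with 1 probe set each (mean of at least 6.11). With 10 simulations and 200 changed probe sets among 38229, the fit recovered 82.8% of changes of 1 and 2.3% of changes of 0.5 (log2), with 5.25% of calls false. The data gave 1469 calls, so the cut-off on the unadjusted p was stricter in the simulations than in the data.

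Genes named were every member; of each pathway list up to 4 genes with a called probe set, or the 2 with the largest difference; called neighbours, of which there were 0; and the 5 nearest to MTRR. PRMT1, PRMT5, ICMT, SLC25A26, THAP11, HCFC1, COL1A1, ERBB2, ESR1, TFAP2B and CDKN2A were named after their values were seen. Members and lists were chosen with earlier results of these data known. Some listed genes were not analysed here. Alternatives were other filters, normalizations, moderation, thresholds, a replicate block, mean probe sets and leaving out each array.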

Additional observations from a re-analysis of the deposited data

How the results depend on the processing

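Of the 18 tested member probe sets, 0 were called higher under every setting tried (limma; 0 or 1 at an unadjusted p under 0.05), and the count called lower, 2 as reported, was 1 without the filter on dim probe sets, 4 with a filter at the 50th percentile, 5 with a trend and robust variances, 4 at an adjusted p under 0.1 and 0 without any 1 array. Over all probe sets, 545 higher and 924 lower became 327 and 485 without the filter, 886 and 1506 with the 50th percentile, 1603 and 2812 with a trend and robust variances, 1230 and 2090 at 0.1, and 0 to 1 and 0 without 1 array, where 2197 to 2988 and 2664 to 4341 had an unadjusted p under 0.05. The 18 are the member probe sets tested in the fit as reported. There were 20 without the filter and 16 with the 50th percentile. With 1 array left out, the lone array of a group is assumed to vary like the others. Among the 8 genes with 1 probe set each, the count higher was 1 (MMACHC) with the 50th percentile, with quantile normalization, at 0.1 and when all probe sets of a gene were averaged, and 0 without each array; the count lower, 2 as reported, was 1 without the filter and 0 to 2 without 1 array. Signs turned for AHCYL1 200848_at (0.017, log2, after quantile normalization; -0.12 to 0.093 over the fits without 1 array) and MTAP 204956_at (-0.32 to 0.047, log2, over those fits). The cause of these changes was not tested.

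With the replicate number as a block, 1 member probe set was called lower (MTRR 203200_s_at; MTR 226969_at had an adjusted p of 0.0694), and 322 higher and 509 lower overall. The deviations of vehicle and AICAR arrays with the same replicate number had a correlation of -0.08 over probe sets. With so few arrays this does not show whether the replicates were paired. A change of 0.5 (log2) was rarely recovered in simulated data with 200 changed probe sets. The data gave 1469 calls and so a less strict cut-off, and that recovery does not carry over to them. A probe set without a call is still not shown to be unchanged.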
